A study of Mus musculus with 13 samples.

Results

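Mitosis genes are described here across 2 stages of thymocyte development, DN3 and DN4, in control mice and in mice labelled as lacking Opa1. The group holds 48 listed genes of the G2 and M phases of the cell cycle, found by the Ensembl identifiers that match their symbols, out of 47937 genes in the count table. All 48 were found and all 48 passed the filter on low counts in every comparison, and the lowest count of any of them in any library was 26. RNA came from thymocytes sorted from C57BL/6 mice aged 6 weeks. The control mice were Wt;Lck-Cre+ (Wt), and the others were Opa1fl/fl;Lck-Cre+, called KO-labelled here because counts over the whole Opa1 gene cannot show the loss of floxed exons. Both genotypes carry Lck-Cre, which expresses Cre recombinase in developing T cells, so Cre is present in the controls too. There were 3 Wt DN3 libraries (mice WT05, WT46 and WT48), 4 Wt DN4 libraries (the same mice and WT40), and 3 KO-labelled libraries of each stage (mice KO45, KO49 and KO51). The numbers in the library names are read as mice, so that a DN3 and a DN4 library of the same number are taken as 1 animal. Reads from Y-linked genes were present only in WT40 and WT46, so the sexes were not balanced between the genotypes.

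At β-selection, thymocytes that have made a working T cell receptor β chain start to divide and pass from DN3 to DN4. Mitosis is driven by CDK1 bound to cyclins A2, B1 and B2, which CDC25 phosphatases switch on. Polo-like and Aurora kinases build the spindle and the kinetochores, the spindle assembly checkpoint holds the anaphase-promoting complex back until chromosomes are attached, and the complex then marks securin and cyclin B for destruction. Most of these genes are transcribed in late S, G2 and M phase, so that their RNA in a sorted population follows the share of cells in those phases. In bulk RNA, fewer cells in a phase and less RNA per cell cannot be told apart.

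Promoters of such genes commonly hold a cell cycle genes homology region (CHR), which MuvB complexes bind, and CCAAT boxes, which NF-Y binds. RefSeq promoters, from 250 bases before to 50 bases after the start, were at hand for 39 of the 48 members, and none was used for Ccna2, Cdc25c, Aurkb, Tpx2, Incenp, Spc24, Kif20a, Smc4 and Foxm1. A CHR, searched as TTTGAA or TTCGAA on both strands, was in 31 of the 39 (79.5%) against 21.7% of the 27025 genes with a promoter of that length, and a CCAAT box, searched as CCAAT on both strands, in 30 of the 39 (76.9%) against 41.1%. Both motifs were in 27 members (69.2%) against 8.61% of genes. A match describes the letters only. The 200 bases before the start are shown for Cdc25b, the member with the largest change between the stages, and for Ccnb2, Mki67 and Top2a, which are among the members with the highest levels per length. Capitals mark CHR and CCAAT matches on either strand.
Cdc25b: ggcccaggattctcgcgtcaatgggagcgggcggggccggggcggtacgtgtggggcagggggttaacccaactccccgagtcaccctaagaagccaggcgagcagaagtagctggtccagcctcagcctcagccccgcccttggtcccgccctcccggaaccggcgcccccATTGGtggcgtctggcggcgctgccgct
Ccnb2: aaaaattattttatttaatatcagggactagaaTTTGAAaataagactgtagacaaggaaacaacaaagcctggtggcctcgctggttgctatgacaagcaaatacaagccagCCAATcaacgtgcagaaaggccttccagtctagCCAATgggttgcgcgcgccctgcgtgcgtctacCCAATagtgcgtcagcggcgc
Mki67: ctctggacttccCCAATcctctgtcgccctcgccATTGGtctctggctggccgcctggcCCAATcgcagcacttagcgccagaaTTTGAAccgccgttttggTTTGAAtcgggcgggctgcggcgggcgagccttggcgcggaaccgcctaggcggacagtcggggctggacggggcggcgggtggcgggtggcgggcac
Top2a: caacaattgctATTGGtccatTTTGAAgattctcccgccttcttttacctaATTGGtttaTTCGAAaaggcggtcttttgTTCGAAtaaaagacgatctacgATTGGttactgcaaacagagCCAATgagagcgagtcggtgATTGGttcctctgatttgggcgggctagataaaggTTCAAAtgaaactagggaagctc
These stretches lie at chr2:131186748-131186947 on the plus strand (Cdc25b), and on the minus strand at chr9:70421555-70421754 (Ccnb2), chr7:135716380-135716579 (Mki67) and chr11:99024190-99024389 (Top2a) of GRCm38.p6, and no annotated exon overlaps them. Over the whole window, Top2a had 4 CHR and 6 CCAAT matches, Mki67 and Ccnb2 each had 2 and 3, and Cdc25b had 1 and 1, its CHR lying after the start, outside the stretch shown. Mad2l1, Birc5, Nuf2, Pttg1 and Nusap1 had no match of either motif in this window.

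Sequencing depth was between 5926848 and 14148661 counts per library, with a median of 10023044, and the mitosis genes took 0.485% to 0.918% of the counts. One library, Wt DN3 of mouse WT05, stood apart: 40% of its counts fell on 6 rRNA-like genes, against 0.395% to 1.61% in the others. Values of the Wt stage and DN3 genotype comparisons are also given without it. The stages went with their markers: the summed level of 7 DN3 markers was 2048 to 2866 CPM (counts scaled to the library size, with TMM factors) in DN3 and 442 to 1839 CPM in DN4, and that of 6 markers past β-selection was 141 to 254 CPM in DN3 and 571 to 3362 CPM in DN4. B-cell RNA was present in DN4, where all 6 B-cell markers were detected in every library and summed to 231 to 2950 CPM, against 20.9 to 54.7 CPM in DN3, where Pax5 was at 0 in KO45 and Ebf1 in KO51. Plasmacytoid dendritic markers summed to 170.0 to 407 CPM in DN3 and 485 to 908 CPM in DN4, with 2 called higher in both genotypes and 1 lower in KO-labelled mice. Markers of natural killer and innate lymphoid cells summed to 226 to 297 CPM in DN3 and 193 to 379 CPM in DN4, with 3 called higher in both. Markers of γδ T cells summed to 1063 to 2056 CPM in DN3 and 687 to 1955 CPM in DN4, with 2 called higher and 2 lower in Wt mice and 3 lower in KO-labelled mice (edgeR). Stromal markers summed to 16.7 to 58.6 CPM in DN3 and 9.33 to 11.9 CPM in DN4, with 1 called lower in both genotypes. Erythroid markers summed to at most 6.29 CPM, with 1 called higher in Wt mice, and myeloid markers to at most 12.8 CPM, with 1 called lower in both genotypes (edgeR). The part of admixed cells in the stage results was not tested.

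Among the members, the highest levels per kilobase of exon length were those of chromosome structure genes. In that group, Smc2 (33.7 CPM per kb) and Ncapg (13.5 CPM per kb) were lower. Smc4, a condensin ATPase, averaged 128 CPM per kb over the 13 libraries. Top2a, the topoisomerase that untangles sister chromatids, averaged 86.5 CPM per kb. Ncapd2, a condensin subunit, averaged 73.5 CPM per kb, or 71.1 CPM per kb without the WT05 DN3 library. Mki67, which coats mitotic chromosomes, averaged 73.4 CPM per kb, or 62.5 CPM per kb without that library. Ccnb2 (cyclin B2) led the cyclins and CDC25 phosphatases with 71.0 CPM per kb (72.0 without that library, above Ncapd2 and Mki67). Cdc20, the activator of the anaphase-promoting complex, led its group with 55.8 CPM per kb. The lowest averages named here were 5.18 CPM per kb for Cenpf, an outer kinetochore protein, and 3.16 CPM per kb for Cdc25c.

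**Figure D1:**
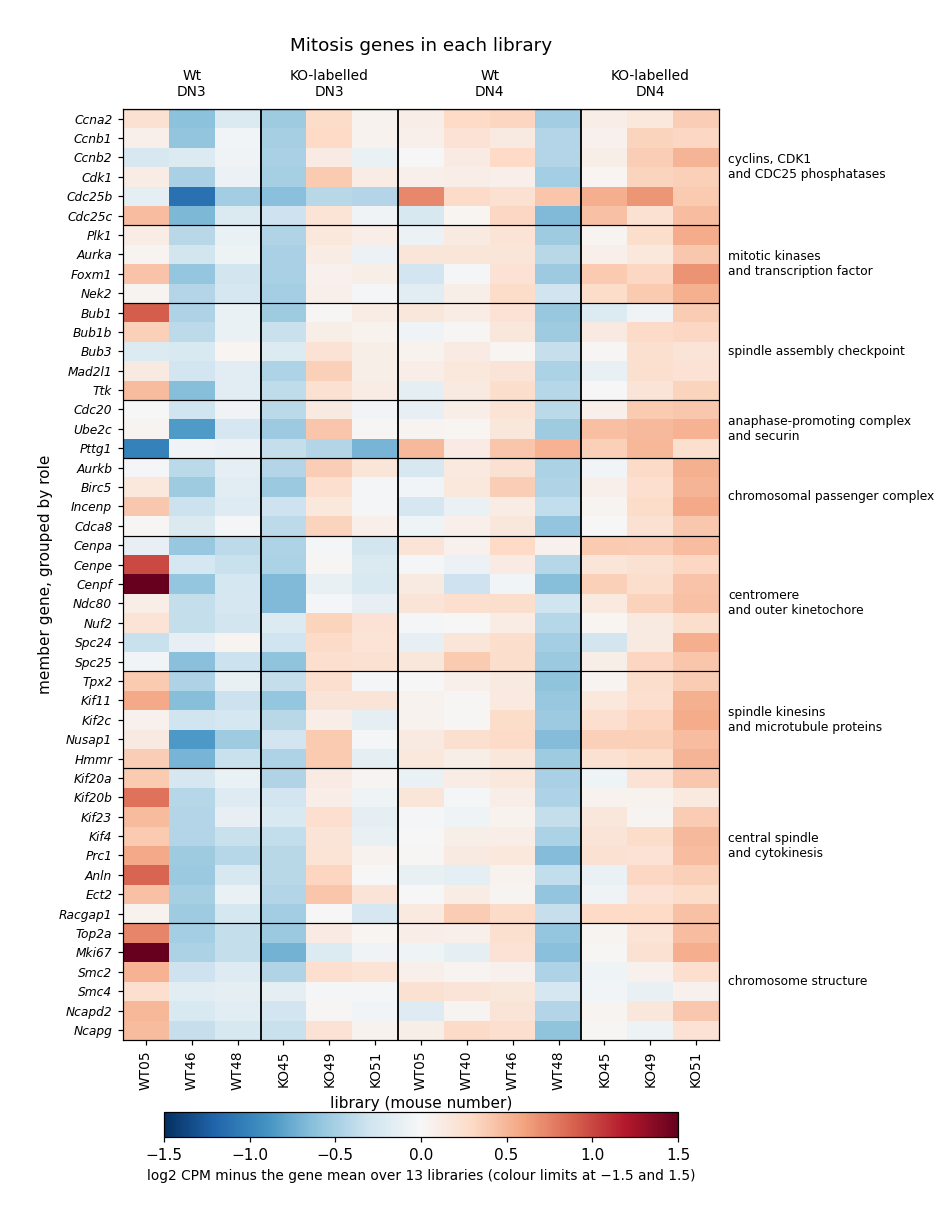
Each row is 1 of the 48 mitosis genes, grouped by role, and each column 1 of the 13 libraries, with colour for the log2 CPM minus that gene's mean over the libraries. Wt DN3 of WT05 and KO-labelled DN4 of KO51 are high for most members, and Wt DN3 of WT46, KO-labelled DN3 of KO45 and Wt DN4 of WT48 are low for most, with summed levels of 4983, 4909 and 4825 CPM.

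In Wt mice the question was whether mitosis genes change as cells pass from DN3 to DN4. Of the 48 members, 2 rose and none fell at an adjusted p under 0.05 (edgeR quasi-likelihood test, Benjamini-Hochberg over all 12691 genes tested), where 13.4% of all genes were called higher and 9.40% lower. The members called were Cdc25b, the phosphatase that starts CDK1 activation, and Cenpa, the histone H3 variant of centromeres. The median log2 fold change of the members was 0.05, against -0.03 over all genes tested, and 28 of 48 were positive. Values ran from -0.83 for Cenpf to 0.95 for Cdc25b. In 3 members, Cdc25b, Cenpa and Pttg1, every DN4 library was above every DN3 library, a pattern shown by 20.0% of all genes. With the mouse as a block, Cdc25b alone was called (log2 fold change 1.03, SE 0.165, adjusted p = 0.00322 by edgeR), where 12.3% of genes were called higher, and Cenpa had an adjusted p of 0.0616 in that edgeR fit. Without Wt DN3 of WT05, 47 of 48 members were positive, with a median of 0.23, and Cdc25b (1.18, adjusted p = 0.0064 by edgeR) and Cenpa (0.60, adjusted p = 0.0088 by edgeR) were the members called. All 20 members with a negative value were positive without it, and Spc24 alone went the other way, to -0.01. Leaving out another library ended calls while the sizes stayed close: without DN3 of WT48, Cdc25b was at 0.97 (edgeR adjusted p = 0.0614) and Cenpa at 0.47 (0.0932), and without DN4 of WT05 they were at 0.84 (0.0557) and 0.48 (0.0774). Cenpa was also not called without DN3 of WT46, at 0.39 (edgeR adjusted p = 0.110), or DN4 of WT46, at 0.44 (0.0735).

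In KO-labelled mice more members passed the test than in Wt mice, at a share close to that of all genes. Of the 48, 6 rose and none fell by edgeR, where 11.4% of all 12580 genes were called higher and 7.38% lower. They were Cdc25b and Cenpa again, Pttg1 (securin), Cenpf, Racgap1 (a central spindle protein needed for cytokinesis) and Kif2c (a kinesin that takes microtubules apart at kinetochores). The median log2 fold change was 0.32 and 47 members were positive, Nuf2 being the exception. Leaving out 1 library, the median ran from 0.16 (without DN3 of KO45) to 0.41 (without DN3 of KO49). In 17 members the DN4 libraries were all above the DN3 libraries, against 22.0% of all genes. With the mouse as a block, 26 members were called higher, where 19.0% of genes were, among them 4 kinases and transcription factors, 4 genes of the central spindle and cytokinesis, 4 of the centromere and outer kinetochore, 3 of chromosome structure and 3 spindle kinesins and microtubule proteins (Kif11, Kif2c and Nusap1). Mki67, for example, had a log2 fold change of 0.56 in both fits, with an adjusted p of 0.0811 without the block and 0.000432 with it (edgeR). Birc5 and Nusap1, also called with the block, were slightly lower in DN4 in KO49 (log2 change -0.0028 and -0.038). The members move together across libraries, so the 26 calls are not separate observations. The block fit was not repeated with a KO-labelled mouse left out. Leaving out each of the 6 libraries in turn, without the block, kept Cdc25b called every time, with an edgeR adjusted p of at most 0.0101. Cenpa lost its call once, without DN3 of KO51 (edgeR adjusted p = 0.0638), which left 1 member called. Pttg1 lost its call without DN3 of KO49, DN3 of KO51 or DN4 of KO49 (edgeR adjusted p up to 0.0628), Cenpf without DN3 of KO51 or DN4 of KO45 (up to 0.0652), Racgap1 in 5 of 6 fits, all but the one without DN3 of KO49 (up to 0.102), and Kif2c in all 6 (0.0528 to 0.163).

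The mice did not move together. From DN3 to DN4, all 48 members were higher in KO45, KO51 and WT46, 29 were higher in KO49, 11 in WT05 and 3 in WT48. The median log2 change of the members was 0.56 in KO45, 0.04 in KO49, 0.44 in KO51, -0.21 in WT05, 0.60 in WT46 and -0.28 in WT48, while 50.8% to 52.8% of all genes were higher in DN4 in each mouse. WT05 holds the library that stood apart, and WT48 holds the DN4 library with the highest B-cell level, 2950 CPM. The 3 members higher in DN4 in all 6 mice, as 21.9% of all genes were, were Cdc25b, Cenpa and Pttg1. In the KO-labelled mice 29 members were higher in all 3 animals, where 34.0% of all genes were, and in the Wt mice 3 were, where 28.5% of all genes were. Each count is that of 1 mouse, KO49 and WT48, since the members higher there were higher in the others of the genotype too.

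The summed level of the 48 genes was 9886, 4983 and 5684 CPM in Wt DN3 of WT05, WT46 and WT48, and 6782, 7004, 7559 and 4825 CPM in Wt DN4 of WT05, WT40, WT46 and WT48. In KO-labelled mice KO45, KO49 and KO51 it was 4909, 7181 and 6628 CPM in DN3 and 7003, 7642 and 8741 CPM in DN4. The Wt groups overlapped, and so did the KO-labelled groups, by the KO49 DN3 library. A list of 28 DNA replication genes, which mark S phase rather than mitosis, gave another order: its summed level changed by a log2 value of -0.19 in KO45, -0.12 in KO49, 0.04 in KO51, -0.40 in WT05, 0.17 in WT46 and -0.57 in WT48. The mitosis sum moved further up, or less far down, than the replication sum in 5 of 6 mice, WT05 being the exception, which is given as a description with no test.

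**Figure D2:**
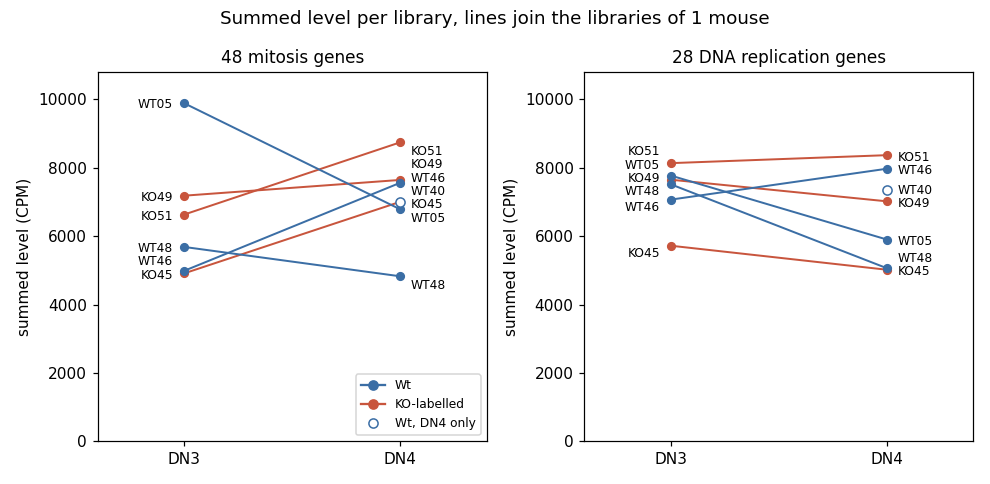
Summed level (CPM) of the 48 mitosis genes and of the 28 DNA replication genes in each library, with lines joining the DN3 and DN4 libraries of 1 mouse. The mitosis sum is higher in DN4 in KO45, KO49, KO51 and WT46 and lower in WT05 and WT48.

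Among the cyclins and CDC25 phosphatases, Cdc25b (chr2, 131186949 to 131198497, plus strand, GRCm38) had the largest change. Its level was 72.3, 36.5 and 55.5 CPM in Wt DN3 of WT05, WT46 and WT48, and 131, 96.7, 93.2 and 106 CPM in Wt DN4 of WT05, WT40, WT46 and WT48. KO-labelled mice KO45, KO49 and KO51 had 51.4, 59.3 and 58.4 CPM in DN3 and 116, 126 and 104 CPM in DN4. The stages did not overlap in either genotype, and the mean rose from 54.7 ± 17.9 (SD, n = 3) to 107 ± 17.0 CPM (SD, n = 4) in Wt mice and from 56.4 ± 4.35 to 115 ± 10.7 CPM (SD, n = 3 each) in KO-labelled mice. The edgeR log2 fold change was 0.95 (SE 0.229, adjusted p = 0.0186) and 1.01 (SE 0.114, adjusted p = 0.00102). Exons of Cdc25b overlap Spef1 on the other strand, as those of Cdc20 overlap Elovl1 and those of Nusap1 overlap Oip5, and how strand was counted is not given in the sources used here, so reads of such pairs may be mixed. Ccnb2 (chr9, 70407692 to 70421547, minus strand) had the highest level per length in this group. It was at 90.4, 92.4 and 103 CPM in Wt DN3 of WT05, WT46 and WT48 and 107, 116, 131 and 78.8 CPM in Wt DN4 of WT05, WT40, WT46 and WT48, which overlap, a log2 fold change of 0.16 (SE 0.167, edgeR adjusted p = 0.545). KO45, KO49 and KO51 had 76.4, 116 and 99.9 CPM of Ccnb2 in DN3 and 113, 138 and 152 CPM in DN4, and the log2 fold change was 0.44 (SE 0.170, edgeR adjusted p = 0.112, and 0.00284 with the mouse as a block).

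Securin (Pttg1; chr11, 43420250 to 43426251, minus strand) holds separase back until anaphase. It was among the lowest members, at 7.61, 14.8 and 14.4 CPM in Wt DN3 of WT05, WT46 and WT48 and 21.4, 16.7, 20.5 and 21.9 CPM in Wt DN4 of WT05, WT40, WT46 and WT48. KO45, KO49 and KO51 had 12.0, 11.3 and 9.42 CPM in DN3 and 19.6, 21.6 and 18.1 CPM in DN4, again with no overlap. The log2 fold change was 0.84 in KO-labelled mice (SE 0.181, edgeR adjusted p = 0.0148) and 0.66 in Wt mice (SE 0.235, edgeR adjusted p = 0.0791), where DESeq2 gave an adjusted p of 0.0484. Without the WT05 DN3 library the Wt value was 0.43 (edgeR adjusted p = 0.0843). Cdc20 (chr4, 118432901 to 118437352, minus strand), in the same group, was at 102, 83.5 and 99.3 CPM in Wt DN3 and 94.0, 110.2, 118 and 77.8 CPM in Wt DN4, and in KO-labelled mice at 77.7, 113 and 99.9 CPM in DN3 and 108, 134 and 136 CPM in DN4, in the same order of mice. Both pairs of groups overlap, and Cdc20 differed between stages by a log2 fold change of 0.05 in Wt mice (edgeR adjusted p = 0.851) and 0.36 in KO-labelled mice (edgeR adjusted p = 0.142, and 0.00567 with the block).

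The kinases Plk1 and Nek2 and the transcription factor Foxm1, which drives G2 and M phase genes, did not pass the test in either genotype without the block. With the mouse as a block all 3 were called higher in KO-labelled mice (edgeR adjusted p = 0.0203 for Plk1, 0.00281 for Nek2 and 0.00255 for Foxm1). Foxm1 was at 158, 78.9 and 97.3 CPM in Wt DN3 of WT05, WT46 and WT48 and 96.3, 116, 137 and 80.5 CPM in Wt DN4 of WT05, WT40, WT46 and WT48, which overlap. In KO45, KO49 and KO51 it was at 83.5, 123 and 125 CPM in DN3 and 155, 145 and 188 CPM in DN4, with no overlap, and the log2 fold change was 0.54 (SE 0.169, edgeR adjusted p = 0.0593). Nek2 (chr1, 191821444 to 191833050, plus strand), a centrosome kinase, was at 31.5, 47.2 and 44.2 CPM in their DN3 and 54.5, 58.7 and 64.8 CPM in their DN4 libraries, again apart (log2 fold change 0.52, SE 0.157, edgeR adjusted p = 0.0547). In Wt mice Nek2 was at 46.2, 33.2 and 37.5 CPM in DN3 and 40.1, 47.6, 54.3 and 36.3 CPM in DN4. Those Wt values overlap. Plk1 (chr7, 122159439 to 122169873, plus strand), a kinase of spindle assembly and exit, was at 57.9, 88.4 and 84.9 CPM in DN3 of KO45, KO49 and KO51 and 81.6, 95.3 and 116 CPM in DN4, a log2 fold change of 0.32 (edgeR adjusted p = 0.267). In Wt mice Plk1 ranged from 59.2 to 85.4 CPM in DN3 and from 54.7 to 91.3 CPM in DN4. Some Plk1 reads could come from its pseudogene Plk-ps1, since 10.4% of its 50-base stretches occur elsewhere too.

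At the centromere and kinetochore, Cenpa (chr5, 30666777 to 30674830, plus strand) was at 77.0, 56.9 and 64.2 CPM in Wt DN3 of WT05, WT46 and WT48 and 96.0, 87.8, 103 and 87.9 CPM in Wt DN4 of WT05, WT40, WT46 and WT48. KO45, KO49 and KO51 had 60.9, 82.9 and 69.6 CPM in DN3 and 110.5, 109 and 116 CPM in DN4. Every DN4 library was above every DN3 library of its genotype, with a log2 fold change of 0.49 in Wt mice (SE 0.131, edgeR adjusted p = 0.0286) and 0.63 in KO-labelled mice (SE 0.124, edgeR adjusted p = 0.00969). Cenpf (chr1, 189640606 to 189688086, minus strand) was at 228, 48.2 and 60.3 CPM in Wt DN3 and 79.2, 58.1, 69.9 and 46.5 CPM in Wt DN4, in the same order of mice. The 228 CPM came from the WT05 library that stood apart, and without it the log2 fold change in Wt mice was 0.19 in place of -0.83. In KO45, KO49 and KO51, Cenpf rose from 45.7, 66.5 and 61.8 CPM to 92.4, 86.4 and 96.7 CPM, a log2 fold change of 0.64 (SE 0.142, edgeR adjusted p = 0.0159). Spc24 (chr9, 21755442 to 21760303, minus strand), of the NDC80 complex, ranged from 47.1 to 61.2 CPM in Wt DN3, 41.7 to 71.5 CPM in Wt DN4, 48.4 to 72.5 CPM in KO-labelled DN3 and 49.2 to 86.9 CPM in KO-labelled DN4, and its log2 fold change was 0.08 in Wt mice and 0.07 in KO-labelled mice (edgeR adjusted p = 0.804 and 0.862).

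Racgap1 (chr15, 99620496 to 99651656, minus strand) was at 144, 96.0 and 116 CPM in Wt DN3 of WT05, WT46 and WT48 and 154, 180.4, 169.8 and 109 CPM in Wt DN4 of WT05, WT40, WT46 and WT48, which overlap. In KO45, KO49 and KO51 it rose from 96.6, 138 and 117 CPM to 171, 171 and 189 CPM (log2 fold change 0.57, SE 0.136, edgeR adjusted p = 0.0218). Kif20a, a kinesin of the central spindle, was at 134, 85.8 and 95.5 CPM in Wt DN3 and 95.5, 111, 114 and 72.9 CPM in Wt DN4, and in KO-labelled mice at 74.6, 111 and 105 CPM in DN3 and 98.0, 119 and 135 CPM in DN4. All of these overlap, and the log2 fold change was -0.12 in Wt mice and 0.25 in KO-labelled mice (edgeR adjusted p = 0.727 and 0.346, the latter 0.0407 with the block). Its exons overlap Cdc23 on the other strand. Of its 50-base stretches 25.2% are shared with Cdc23, against 1.15% of those of Cdc25b with Spef1, so its reads may be mixed to a larger degree. Among the spindle kinesins, Kif2c (chr4, 117159639 to 117182639, minus strand) rose in KO45, KO49 and KO51 from 39.4, 56.0 and 47.6 CPM to 62.4, 65.6 and 77.4 CPM (log2 fold change 0.50, SE 0.149, edgeR adjusted p = 0.0496). In Wt mice Kif2c ranged from 42.7 to 55.0 CPM in DN3 and 36.1 to 63.5 CPM in DN4, a log2 fold change of 0.12 (edgeR adjusted p = 0.713). Nusap1 (chr2, 119618298 to 119651244, plus strand), which bundles spindle microtubules, was at 118, 59.4 and 74.8 CPM in Wt DN3 and 118, 127, 131 and 68.6 CPM in Wt DN4, and in KO-labelled mice at 88.2, 142 and 106 CPM in DN3 and 138, 138 and 148 CPM in DN4. Its log2 fold change was 0.39 in Wt mice and 0.32 in KO-labelled mice (edgeR adjusted p = 0.375 and 0.213, the latter 0.0467 with the block). Kif11 (chr19, 37376403 to 37421859, plus strand), the motor that separates the spindle poles, was at 361, 156 and 194 CPM in Wt DN3 and 251, 246, 269 and 163 CPM in Wt DN4, and in KO-labelled mice at 163, 277 and 277 CPM in DN3 and 271, 289 and 351 CPM in DN4. The stages of Nusap1 and of Kif11 overlap in both genotypes, and Kif11 gave -0.05 and 0.33 (edgeR adjusted p = 0.929 and 0.306, the latter 0.0267 with the block).

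Checkpoint, passenger complex and chromosome structure genes held no member called without the block. Bub1b (chr2, 118598211 to 118641591, plus strand), a checkpoint protein, was at 224, 134 and 163 CPM in Wt DN3 of WT05, WT46 and WT48 and 169, 177, 198 and 122 CPM in Wt DN4, and in KO-labelled mice at 139.5, 186 and 181 CPM in DN3 and 193, 213 and 218 CPM in DN4. Only the KO-labelled groups of Bub1b do not overlap, and its log2 fold change was -0.09 in Wt mice and 0.28 in KO-labelled mice (edgeR adjusted p = 0.819 and 0.175, the latter 0.0170 with the block). Bub1 (chr2, 127801122 to 127831865, minus strand), a checkpoint kinase, gave -0.23 and 0.15, and ranged from 52.8 to 137 CPM in Wt DN3, highest in WT05, 49.1 to 84.6 CPM in Wt DN4, 50.1 to 78.5 CPM in KO-labelled DN3 and 63.0 to 94.9 CPM in KO-labelled DN4. Birc5 (survivin) and Incenp, of the chromosomal passenger complex that carries Aurora B, gave 0.18 and -0.17 in Wt mice and 0.35 and 0.33 in KO-labelled mice, where the block gave edgeR adjusted p values of 0.0305 and 0.0219. Birc5 ranged from 71.7 to 115 CPM in Wt DN3, 75.8 to 134 CPM in Wt DN4, 70.2 to 123 CPM in KO-labelled DN3 and 109 to 147 CPM in KO-labelled DN4. Incenp ranged from 148 to 244 CPM in Wt DN3, highest in WT05, 143 to 198 CPM in Wt DN4, 148 to 206 CPM in KO-labelled DN3 and 188 to 272 CPM in KO-labelled DN4. Mki67 (chr7, 135689784 to 135716361, minus strand) was at 2051, 484 and 524 CPM in Wt DN3 of WT05, WT46 and WT48 and 643, 609, 780.0 and 435 CPM in Wt DN4 of WT05, WT40, WT46 and WT48. As for Cenpf, the highest value was the WT05 library, and the log2 fold change in Wt mice was -0.75 with it (SE 0.508, edgeR adjusted p = 0.337) and 0.26 without it. KO45, KO49 and KO51 had 409.9, 580.5 and 644 CPM of Mki67 in DN3 and 680.5, 783 and 977 CPM in DN4. Smc4 (chr3, 69004738 to 69034623, plus strand), the member with the highest level per length, was at 791, 597 and 602 CPM in Wt DN3 and 777, 759.7, 747 and 559 CPM in Wt DN4, and in KO-labelled mice at 599, 659 and 654 CPM in DN3 and 644, 615 and 696 CPM in DN4. Its groups overlap, and the log2 fold change was 0.07 in Wt mice and 0.01 in KO-labelled mice (edgeR adjusted p = 0.790 and 0.961).

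**Figure D3:**
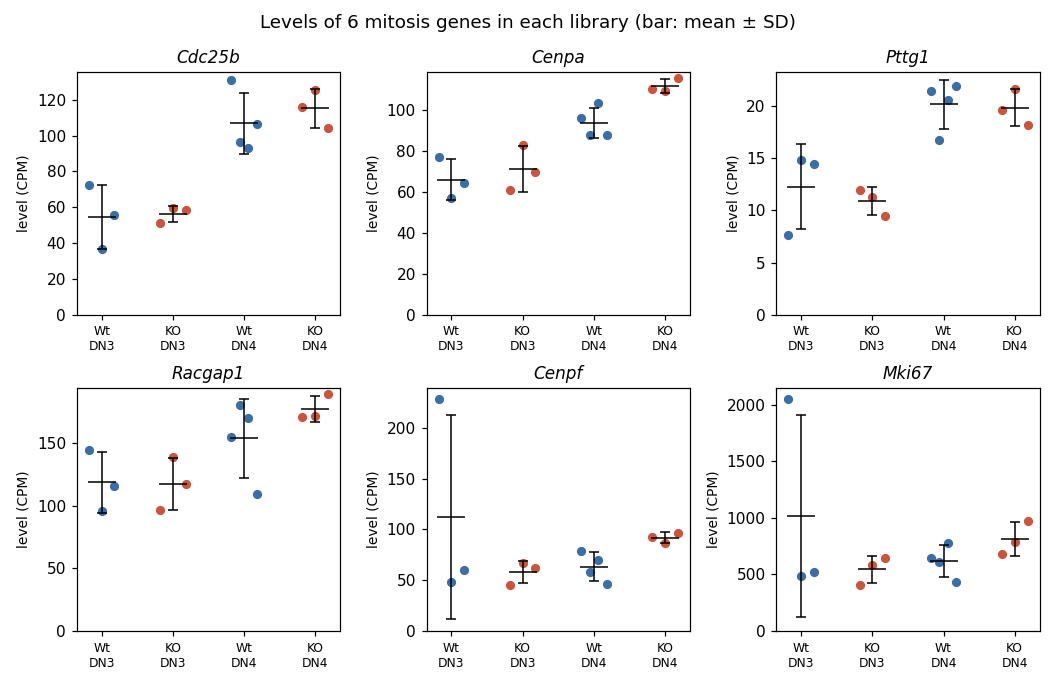
Levels (CPM) of Cdc25b, Cenpa, Pttg1, Racgap1, Cenpf and Mki67 in each library by group, where KO stands for KO-labelled, each point is 1 library and bars give the mean ± SD. The DN4 points of Cdc25b, Cenpa and Pttg1 lie above the DN3 points of the same genotype, and single Wt DN3 points of Cenpf (228 CPM) and Mki67 (2051 CPM), both from WT05, lie far above the rest.

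In the WT05 DN3 library, 44 of 48 members were above the mean of the other Wt DN3 libraries, against 46.1% of all genes, with a median log2 ratio of 0.62 against -0.03. Cenpf was 4.23-fold and Mki67 4.07-fold higher there, whereas Pttg1, Spc24, Ccnb2 and Bub3 were lower. The ratio was larger for long genes: the median was 0.78 for members over 5055.5 bases of exon and 0.47 for the others, and over all genes 0.23 and -0.18. Across the 48 members, which share this library and its depth, the Spearman rho of exon length and log2 ratio was 0.59, given as a description.

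The Wt stage values of the named members also moved when that library was left out. Those that turned from negative to positive were Foxm1 (-0.07 to 0.26), Bub1 (-0.23 to 0.25), Bub1b (-0.09 to 0.13), Incenp (-0.17 to 0.08), Kif11 (-0.05 to 0.38) and Kif20a (-0.12 to 0.09), besides Cenpf and Mki67. Nusap1 went from 0.39 to 0.70, Racgap1 from 0.35 to 0.50, Birc5 from 0.18 to 0.35, Nek2 from 0.18 to 0.30, Kif2c from 0.12 to 0.23, Smc4 from 0.07 to 0.21, Plk1 from 0.06 to 0.17 and Cdc20 from 0.05 to 0.10, while Ccnb2 went from 0.16 to 0.12. None of these passed the edgeR test without it.

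The members varied together across libraries. With group means removed, the correlation of a member with the mean of the other 47 over the 13 libraries had a median of 0.93, against -0.04 for the 13313 other genes. It was 0.95 without the WT05 DN3 library. The lowest values were those of Pttg1 (-0.71, and -0.47 without that library), Cdc25b (0.49, and 0.16 without it), Spc24 (0.55, and 0.90 without it), Bub3 (0.64, and 0.94 without it) and Ccnb2 (0.71, and 0.98 without it), while Cenpa had 0.86. The highest value among the 13313 other genes was 0.99 too, and the replication and other cell division lists were not read this way. All these values are descriptions over libraries that share depth and scaling.

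In DN3 cells, the comparison of genotypes asks whether the label goes with mitosis gene levels at that stage. No member passed the edgeR test and 0% of the 12105 genes tested did. No member had an unadjusted p under 0.05, where 0.587% of genes were higher at that level, and no member's groups separated, where 3.10% of genes were higher without overlap. The smallest unadjusted p of a member was 0.120, for Cenpf by edgeR, and its adjusted p was 0.999961. The median log2 fold change of the members, KO-labelled minus Wt, was 0.02, with 27 positive. Leaving out WT46 turned the median to -0.14. Without the WT05 library the median was 0.25, with 46 positive and 3 higher at an unadjusted p under 0.05, where 1.31% of genes were, and Cenpf was at 0.09 in place of -0.94.

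In DN4 cells the members leaned to higher levels in KO-labelled mice, but none passed the test. Of the 48, 47 had a positive log2 fold change, Smc4 (-0.09) being the exception, and the median was 0.32, against 0.00 over all genes, 50.5% of which were positive. No member had an adjusted p under 0.05 by edgeR, the smallest being 0.792 for Ube2c, the ubiquitin-conjugating enzyme of the anaphase-promoting complex, and 0.0611% of the 13084 genes did. At an unadjusted p under 0.05, 14 members were higher, where 2.80% of genes were. In 11 members, Cenpa, Cenpe, Cenpf, Kif11, Kif4, Prc1, Ube2c, Nusap1, Hmmr, Foxm1 and Nek2, every KO-labelled library was above every Wt library, against 2.74% of all genes. Since the members move together across libraries, these counts are not 48 separate observations. Foxm1 had the largest value of those named, at 0.63 (SE 0.191, edgeR adjusted p = 0.821), followed by Ube2c and Cenpf at 0.57 each. Ube2c was at 109, 112 and 115 CPM in KO-labelled DN4 and 82.0, 81.9, 89.9 and 55.4 CPM in Wt DN4 of WT05, WT40, WT46 and WT48. Cdc25b, which rose with stage in both genotypes, and Pttg1, which rose in KO-labelled mice, gave 0.14 and 0.01 (edgeR adjusted p = 0.941 and 0.999).

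The Wt DN4 library of WT48 had the lowest mitosis sum, 4825 CPM, and the highest B-cell sum, 2950 CPM. It was also the highest DN4 library for markers of γδ T cells, at 1955 CPM against 687 to 1351 CPM, of natural killer and innate lymphoid cells, at 379 CPM against 193 to 318 CPM, and of plasmacytoid dendritic cells, at 908 CPM against 485 to 907 CPM. In the other DN4 libraries the B-cell sum was 1553 CPM in WT05, 323 CPM in WT40, 432 CPM in WT46, 1014 CPM in KO45, 1756 CPM in KO49 and 231 CPM in KO51, and all 6 markers had a negative log2 fold change, KO-labelled minus Wt, with a median of -0.35, of which 0 passed the edgeR test. Markers of stage and of other cells differed too, with none called by edgeR: 5 of 6 markers past β-selection were positive, KO-labelled minus Wt, with a median log2 fold change of 0.60, 4 of 6 DN3 markers with a median of 0.63, and none of 5 γδ T markers, with a median of -0.54. The sum of the markers past β-selection was 962, 2148, 1484 and 571 CPM in DN4 of WT05, WT40, WT46 and WT48, and 3362, 1105 and 1384 CPM in DN4 of KO45, KO49 and KO51. The part of stage markers in the lean was not tested. Without WT48 the median of the members was 0.18, with 43 positive and 8 higher at an unadjusted p under 0.05, where 3.26% of genes were. A fit with the B-cell level as a further term, added after seeing the data, gave a median of 0.30, with 27 members higher at an unadjusted p under 0.05, where 4.32% of genes were, and 0 called by edgeR. A fit without WT40 and WT46, the mice with Y-linked reads, was also chosen after seeing the data. It left WT05 and WT48 as the only Wt DN4 libraries, and WT48 had the lowest mitosis sum. The median of the members was 0.51, with 31 higher at an unadjusted p under 0.05, where 4.37% of genes were, and 0 called by edgeR.

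**Figure D4:**
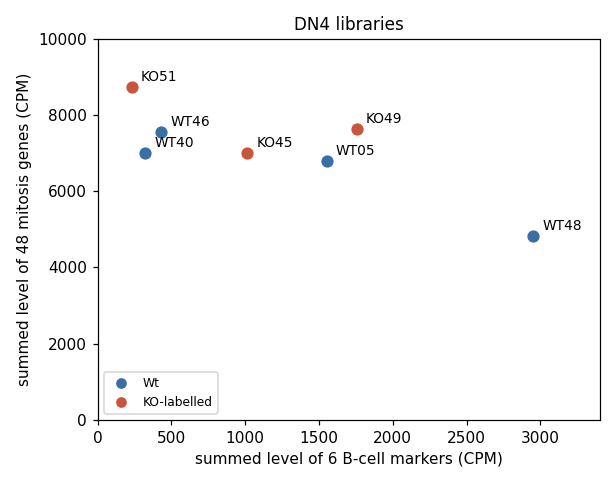
Summed level of the 48 mitosis genes (CPM) against the summed level of 6 B-cell markers (CPM) in the 7 DN4 libraries. WT48 lies lowest for mitosis genes and highest for B-cell markers, and KO51 highest for mitosis genes and lowest for B-cell markers.

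Whether the stage change differs between genotypes was tested as an interaction over all 13 libraries. No member passed the edgeR test, and 0% of 13361 genes did. The median difference of log2 fold changes, KO-labelled minus Wt, was 0.24, with 41 positive. Cenpf alone had an unadjusted p under 0.05 (difference 1.46, edgeR adjusted p = 0.999965), where 1.53% of genes were higher at that level. Without the WT05 DN3 library the median was 0.05, with 28 positive and none at that level, and Cenpf gave 0.46. The larger number of members called in KO-labelled mice is therefore not shown to be a difference between the genotypes.

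**Figure D5:**
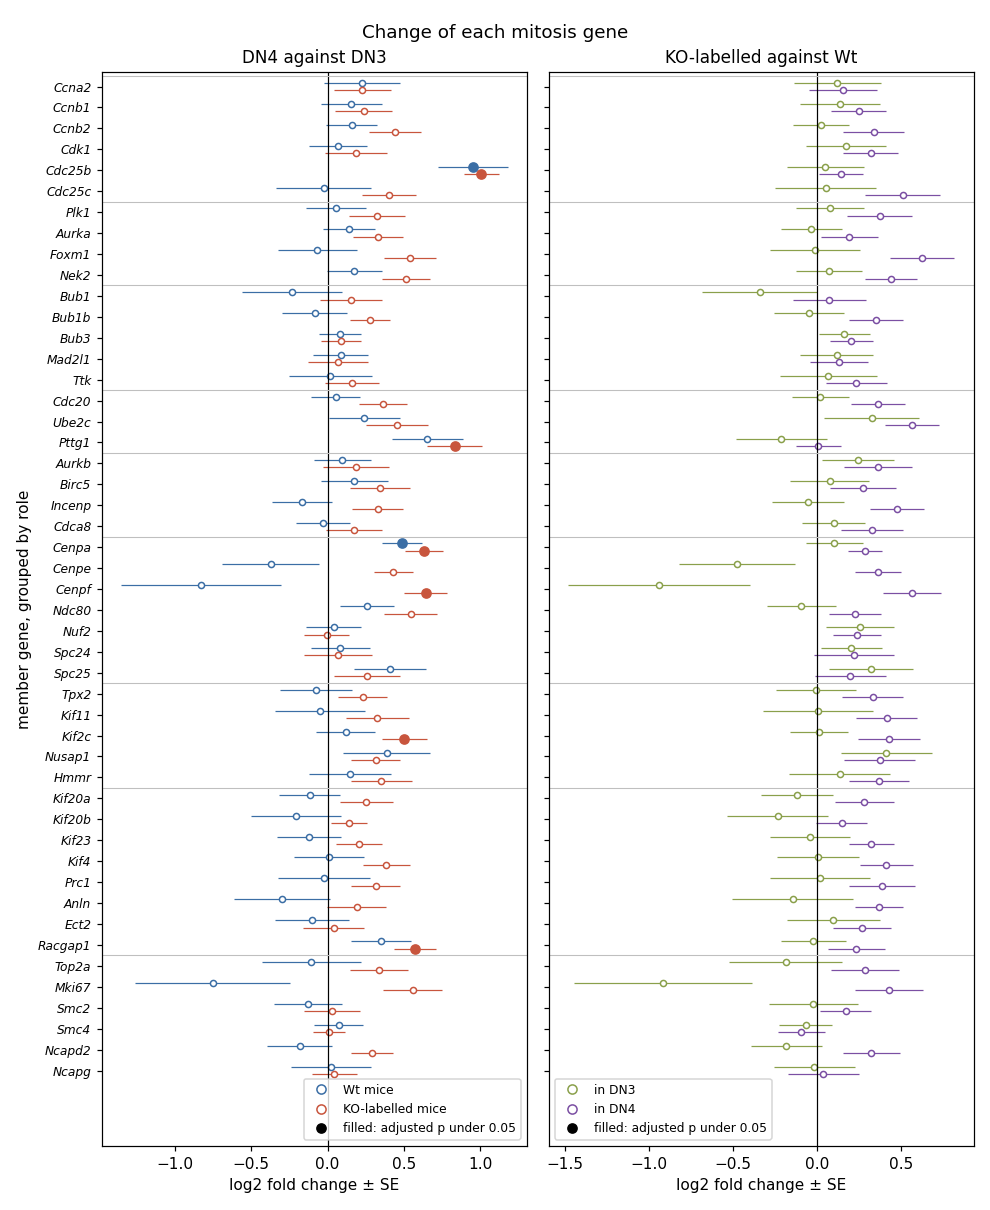
Log2 fold change ± SE of each mitosis gene between DN4 and DN3 in each genotype, and between KO-labelled and Wt in each stage, with filled points for an adjusted p under 0.05. Filled points are Cdc25b and Cenpa in Wt mice and these with Pttg1, Cenpf, Racgap1 and Kif2c in KO-labelled mice, and none between genotypes.

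Other genes of cell division are read against all genes tested, of which 13.4% were called higher and 9.40% lower between the stages in Wt mice, and 11.4% and 7.38% in KO-labelled mice. In both genotypes, without the block, none of 17 genes of the anaphase-promoting complex, 16 of cohesin, 4 other condensin subunits, 23 of the inner kinetochore and 10 of centrosome duplication was called by edgeR. Of 14 regulators of mitotic entry and exit, Cdc14b, a phosphatase, rose in both (1.45, adjusted p = 0.00232 in Wt mice and 1.22, adjusted p = 0.0497 in KO-labelled mice, edgeR), Wee1, the kinase that restrains CDK1, fell in Wt mice (-0.61, edgeR adjusted p = 0.0492), and Ccnf rose in KO-labelled mice (0.60, edgeR adjusted p = 0.0369). Of 12 MuvB, DREAM and B-MYB genes, Rbl2 (p130), the pocket protein of DREAM in resting cells, rose in both (0.93, adjusted p = 0.00258 and 0.97, adjusted p = 0.0142, edgeR). Of the 28 replication genes, Uhrf1, which keeps DNA methylation through replication, fell in Wt mice (-0.59, edgeR adjusted p = 0.0393) and none was called in KO-labelled mice; the list's median was -0.14 and -0.04. With the mouse as a block, added after seeing the data, 12.3% of all genes were called higher and 6.74% lower in Wt mice, where Wee1 was no longer called and Esco1 (cohesin acetyltransferase) and Cdc14a were called higher besides Cdc14b, Rbl2 and, lower, Uhrf1. In KO-labelled mice the block called 19.0% of all genes higher and 17.4% lower. There it called 2 genes of the anaphase-promoting complex list higher (Fzr1 and Ube2s) and 1 lower (Anapc11), 3 of cohesin higher (Rad21, Nipbl and Mau2), 2 of the condensin subunits (Ncaph and Ncaph2), 1 of the inner kinetochore (Knl1) and 3 of centrosome duplication (Stil, Cep152 and Pcnt). Of the regulators of entry and exit, 3 were called higher (Ccnf, Cdc14a and Cdc14b) and 1 lower (Cdc25a), of the MuvB, DREAM and B-MYB genes Rbl2 higher and Tfdp1 lower, and of the replication genes 2 higher (Rrm2 and Ccne1) and 3 lower (Mcm6, Pola1 and Uhrf1). Between genotypes, none of the genes in these lists was called in either stage.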

How the data were processed

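Poly(A) RNA of sorted DN3 and DN4 thymocytes was sequenced from stranded libraries (13 libraries, 7 mice, 6 of them with both stages). The authors trimmed reads with Cutadapt, mapped them with STAR to mm10 and counted them with featureCounts, and deposited raw counts per gene; versions and the strand setting are not given in the sources used here. Of 47937 identifiers, 47310 were found without version in GENCODE M21, used for symbols, positions and exon lengths. No total or unnamed row was present.

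Each comparison used edgeR 4.0.16 (R 4.3.3): filterByExpr with a minimum count of 10, TMM scaling, robust quasi-likelihood fits on its own groups, and Benjamini-Hochberg adjustment over all genes at 0.05, tested on simulated data. SE is the absolute log2 fold change over the root of F. DESeq2 1.42.0 and limma 3.58.1 were alternatives, besides other scaling, filters, thresholds, a joint fit and leaving out each library. Levels are CPM on TMM-scaled library sizes. No libraries were duplicates of each other. Without the block, p-values measure the spread between the libraries of a group, and the DN3 and DN4 libraries of a mouse count as separate. With the block they measure the spread of the stage change between mice.

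Numbers in the library names are taken to pair the samples. Deviations of same-numbered libraries from group means correlated over 13361 genes (KO45 0.522, KO49 0.236, KO51 0.396, WT05 0.179, WT46 0.118, WT48 0.187). Libraries of different numbers were not compared, so these values do not show that same-numbered libraries are more alike. Values with the mouse as a block stand beside the member and cell division results that they change.

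Members and lists were chosen with earlier results of these data known. Full values are given for the member with the highest level per kilobase and the one with the largest Wt stage change in each role, and for those with the largest positive and negative genotype difference in each stage; where the libraries of a group are not listed one by one, their range is given. Cenpa and Kif2c, outside this rule, were added after their values were seen because they were called, and Ube2c because it had the smallest adjusted p between genotypes in DN4. Other genes named outside it were also chosen by their values. Promoter sequences are RefSeq's (GRCm38.p6), and motifs were searched on both strands from 250 bases before to 50 after the start.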

Additional observations from a re-analysis of the deposited data

Results flagged for a closer look

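In the 4 Wt DN4 libraries, 22 sets of values were tested for a library far from the others. Of these sets 1 stood out, where chance gives about 1 in 20. The groups of 3 libraries, among them Wt DN3 with WT05, were not tested. Smc4, the condensin ATPase, was at 559 CPM in Wt DN4 of WT48, against 747 CPM in the nearest of the other 3 Wt DN4 libraries, and the gap took 0.863 of the group's range, where 0.829 is the limit for 4 libraries. The same library had the lowest mitosis sum and the highest B-cell level of the DN4 libraries, and the part of these in the Smc4 value was not tested.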

How the results depend on the processing

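No called value changed sign. In Wt mice 2 members were called higher; library totals gave 1, the replicate block 1, the block without mouse WT05 (chosen after seeing the data) 1, and requiring an absolute log2 change of 1 or more gave 0, while DESeq2, the joint fit and an adjusted p of 0.1 each gave 3, with Pttg1. The share of all genes called higher was 13.4%, and under these settings 11.2%, 12.3%, 10.1%, 9.12%, 14.4%, 16.0% and 16.9%, in that order. Leaving out 1 library gave 0 to 3, with 0 without DN3 of WT48 or DN4 of WT05 and 3 without DN4 of WT48, where 8.17%, 9.01% and 11.8% of genes were called higher (7.93% to 13.9% over these fits). In KO-labelled mice 6 were called; no filter on low counts gave 11, DESeq2 11, the replicate block 26, an adjusted p of 0.1 gave 11, and requiring an absolute log2 change of 1 or more gave 1, while the joint fit gave 4, limma-voom 5 and a minimum of 10 counts in every library 5. The share of all genes called higher was 11.4%, and under these settings 7.73%, 12.3%, 19.0%, 15.2%, 7.20%, 12.7%, 9.90% and 8.78%, in that order. Leaving out 1 library gave 1 to 5, with 1 without DN3 of KO51, where 6.49% of genes were called higher (6.23% to 13.2% over these fits). The block's other changes are given with the stage results and the cell division lists, and the interaction kept 0 members called with it. Among the members and the stage results of these lists it changed no other call. Its effect on the calls of cell type markers was not examined. The cause of these shifts was not tested. Medians over the leave-one-out fits ran from -0.08 (without DN3 of WT46) to 0.23 for stage in Wt mice, 0.16 to 0.41 in KO-labelled mice, -0.14 (without WT46) to 0.25 for genotype in DN3, 0.18 to 0.39 in DN4, and 0.05 to 0.41 for the interaction. Library totals, which shifted the median of all genes in the Wt stage comparison to 0.16, gave a member median of 0.29 there and 0.34 for genotype in DN3. For single named members, 1702 values kept their direction and side of the threshold, 24 passed it, 37 no longer did and 127 values, none of them called, changed sign. Cenpf in KO-labelled mice was not called when all 13 libraries were fitted together (edgeR adjusted p = 0.356), nor was Kif2c (0.0724), which also lost its call under limma-voom (0.0505) and a minimum of 10 counts in every library (edgeR adjusted p = 0.0567). The fewest counts behind a member's value were 26, for Pttg1 in Wt DN3 of WT05.

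The members whose direction changed are these, as log2 fold changes under the alternative. For stage in Wt mice, library totals gave Bub1 0.11, Bub1b 0.18, Foxm1 0.23, Incenp 0.11, Kif11 0.28 and Kif20a 0.14, limma-voom gave Foxm1 0.0020 and Kif11 0.019, the replicate block gave Cdc20 -0.011, Plk1 -0.025 and Spc24 -0.0086, the block without WT05 gave Bub1 0.080, Bub1b 0.039, Cenpf 0.052, Foxm1 0.23, Incenp 0.094, Kif11 0.24, Mki67 0.18 and Spc24 -0.11, and leaving out 1 library ran from -0.49 to 0.25 for Bub1, -0.24 to 0.13 for Bub1b, -0.038 to 0.15 for Cdc20, -1.20 to 0.19 for Cenpf, -0.26 to 0.26 for Foxm1, -0.30 to 0.077 for Incenp, -0.28 to 0.38 for Kif11, -0.24 to 0.085 for Kif20a, -1.09 to 0.26 for Mki67, -0.075 to 0.19 for Plk1 and -0.025 to 0.21 for Spc24. For stage in KO-labelled mice, leaving out 1 library ran from -0.057 to 0.25 for Bub1, -0.054 to 0.042 for Smc4 and -0.18 to 0.22 for Spc24. For genotype in DN3, a minimum of 10 counts in every library gave Foxm1 0.0026, library totals gave Bub1 0.048, Bub1b 0.27, Foxm1 0.33, Incenp 0.27, Kif20a 0.19, Racgap1 0.27 and Smc4 0.23, limma-voom gave Foxm1 0.051, no filter on low counts gave Foxm1 0.016 and Racgap1 0.0027, and leaving out 1 library ran from -0.12 to 0.27 for Birc5, -0.60 to 0.16 for Bub1, -0.20 to 0.18 for Bub1b, -0.12 to 0.17 for Ccnb2, -0.10 to 0.16 for Cdc20, -0.18 to 0.29 for Cdc25b, -0.017 to 0.23 for Cenpa, -1.31 to 0.091 for Cenpf, -0.21 to 0.32 for Foxm1, -0.19 to 0.21 for Incenp, -0.22 to 0.45 for Kif11, -0.25 to 0.094 for Kif20a, -0.12 to 0.13 for Kif2c, -1.25 to 0.11 for Mki67, -0.040 to 0.23 for Nek2, -0.056 to 0.25 for Plk1, -0.15 to 0.15 for Racgap1 and -0.14 to 0.086 for Smc4. For genotype in DN4, DESeq2 gave Pttg1 -0.00050, DESeq2 size factors gave Pttg1 -0.0038, the joint fit gave Pttg1 -0.023, leaving out WT40 and WT46 gave Pttg1 -0.084 and Smc4 0.0063, no filter on low counts gave Pttg1 -0.0049, and leaving out 1 library ran from -0.11 to 0.18 for Bub1 and -0.073 to 0.080 for Pttg1. For the interaction, library totals gave Birc5 -0.085, Cdc25b -0.21, Cenpa -0.086 and Racgap1 -0.027, limma-voom gave Cdc25b -0.057 and Spc24 0.012, the replicate block gave Cdc25b -0.021, Nusap1 0.020 and Spc24 0.056, the block without WT05 gave Cdc25b -0.11 and Spc24 0.15, and leaving out 1 library ran from -0.033 to 0.36 for Birc5, -0.093 to 0.63 for Bub1, -0.17 to 0.28 for Cdc25b, -0.043 to 0.59 for Kif11, -0.38 to 0.13 for Nusap1, -0.19 to 0.0010 for Smc4 and -0.25 to 0.16 for Spc24.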
